A study of Mus musculus with 6 samples.

Results

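The transcription factor gene *Sox9*, 3 further Sox genes (*Sox5*, *Sox6*, and *Sox8*), and 6 genes of cartilage matrix (*Acan*, *Hapln1*, *Matn1*, *Matn3*, *Comp*, and *Chad*) were examined in bulk RNA-Seq of the mouse ductus arteriosus (DA), the fetal artery that joins the pulmonary artery to the aorta. They were taken by gene symbol, and all 10 were present among the 23997 genes of the table. The question was whether lower *Sox9* in the mutant DA went with lower transcripts of cartilage, a tissue that lies close to the DA in the wall of the airway. Fetal DA at E17.5 on the C57BL/6 background gave 6 libraries, of which the 3 labelled WT are from wild-type embryos and the 3 labelled KO are from embryos of the genotype Prdm6f/f; SM22-Cre. In the latter, both alleles of *Prdm6* are floxed, and Cre-recombinase driven by the promoter of SM22 (*Tagln*) acts in smooth muscle cells (SMCs). Whether other cells of the vessel keep the gene is shown neither by the labels nor by the values. The labels give neither a floxed allele nor Cre for the WT embryos, and they do not say whether a library came from 1 embryo or several. All directions below rest on these labels.

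SOX9 switches on the cartilage program. Together with the related factors SOX5 and SOX6 it activates the genes of type II collagen, aggrecan, and link protein in chondrocytes, and the genes of SOX8 and SOX10 belong with *Sox9* to the SOXE group. *Sox9* is not confined to cartilage. It is also active in neural crest cells, in heart valve mesenchyme, and in tendon progenitors, and the SMCs of the DA come largely from the neural crest. Cartilage matrix is built on type II collagen (*Col2a1*) and on aggrecan (*Acan*) bound to hyaluronan through link protein (*Hapln1*), with matrilins (*Matn1*, *Matn3*), cartilage oligomeric matrix protein (*Comp*), and chondroadherin (*Chad*) between them. *Acan* is also made outside cartilage, in large arteries and in nervous tissue, whereas *Matn1* and *Col2a1* mark cartilage more closely.

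Upstream sequences were matched by symbol to RefSeq (GRCm38.p6), which held them for 8 of the 10 genes. They are shown for *Sox5*, a partner gene whose level was higher in the libraries labelled KO, and for the matrix genes at the top and the bottom of the range of levels, *Acan* and *Matn1*. Each run covers the 250 bases before the first listed start, from 5′ to 3′, and none of the 3 touches an annotated exon of the 10 genes. Exons of other genes were not checked. The *Sox5* start lies inside the longer gene of the GENCODE annotation. Capitals mark the letters ACAAT or ACAAAG, the core bound by SOX proteins, on either strand.
Sox5, chr6:143947107-143947356, minus strand: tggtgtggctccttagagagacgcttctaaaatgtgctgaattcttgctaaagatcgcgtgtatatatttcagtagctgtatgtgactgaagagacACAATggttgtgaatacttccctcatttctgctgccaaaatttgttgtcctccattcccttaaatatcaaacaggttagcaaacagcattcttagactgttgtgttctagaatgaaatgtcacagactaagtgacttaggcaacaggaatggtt
Acan, chr7:79052976-79053225, plus strand: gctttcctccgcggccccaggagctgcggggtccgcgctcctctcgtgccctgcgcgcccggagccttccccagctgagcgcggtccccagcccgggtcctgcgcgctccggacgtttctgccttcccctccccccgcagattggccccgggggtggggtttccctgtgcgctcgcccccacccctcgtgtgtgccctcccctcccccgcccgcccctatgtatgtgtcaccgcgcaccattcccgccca
Matn1, chr4:130944135-130944384, plus strand: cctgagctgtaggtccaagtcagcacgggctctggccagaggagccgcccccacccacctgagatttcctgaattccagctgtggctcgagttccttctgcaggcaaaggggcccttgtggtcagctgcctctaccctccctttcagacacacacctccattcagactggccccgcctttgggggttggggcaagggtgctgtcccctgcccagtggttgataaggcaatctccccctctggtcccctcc
These letters occurred in the window of *Sox5* and in neither of the other two. They were found upstream of 3 of the 8 genes (*Sox5*, *Sox6*, and *Hapln1*), and of 39.4% of the 27025 genes with a window of this length. A match of these letters does not show a bound site, and a window without them says nothing about the factor.

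Values are FPKM (fragments scaled by transcript length and by the mapped total of the library). How the libraries were scaled to each other is not given in the sources used here. Their upper quartiles were 10.4 to 10.8 FPKM, whereas their summed FPKM ran from 412183 in WT 1 to 818503 in KO 2. Read depth is unknown. Steps between low values put the other libraries at 0.933 to 1.197 times the depth of WT 1, but this rests on only 8 to 26 genes a library. Between 8338 and 11886 genes were listed at 0 in a library, and these included 34 to 61 of the 3506 genes whose mean reached 20 FPKM, so a single 0 can be a failed estimate. The targeted gene, *Prdm6*, was at 41.7, 48.4, and 19.8 FPKM in WT 0, 1, and 2 and at 48.6, 27.1, and 15.4 FPKM in KO 0, 1, and 2, so that it did not separate the groups. Which part of *Prdm6* is floxed is not given in the sources used here, and the FPKM of the whole gene cannot check the labels. KO 0 held both *Xist* (81.0 FPKM) and transcripts of the Y chromosome (median of 4 genes 13.1 FPKM), a combination seen in none of the other 5 libraries. *Rn45s*, the precursor of ribosomal RNA, was listed at 0 in all 3 WT libraries and was at 3060, 3806, and 4520 FPKM in KO 0, 1, and 2. It was higher in libraries labelled KO and was the only gene that limma called (adjusted p = 7.47e-08). Carry-over of ribosomal RNA in a library can differ with RNA quality and library preparation, and since *Rn45s* splits exactly with the labels, such a difference and the genotype cannot be told apart in any comparison below. WT 1 and KO 2 had the highest summed FPKM of 14 heart muscle genes (1706 and 2003, against 69.6 to 651 in the other 4). Smooth muscle genes, the defining genes of the tissue, were abundant throughout, with summed FPKM of 10 genes from 937 to 5800. In bulk tissue, fewer cells of a type and less RNA per cell cannot be told apart.

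*Sox9* was lower, and *Sox5* and *Sox6* were higher, in every library labelled KO than in any library labelled WT. The groups overlapped for the 4 tested matrix genes, and the other 2 were at or near 0 and were not tested. *Acan*, the most abundant of the 10, was at nearly equal means. None of these differences passed the test across all genes.

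*Sox9* (chromosome 11 of GRCm38 from 112782224 to 112787760) was at 9.97, 7.36, and 4.25 FPKM in WT 0, 1, and 2. It was at 1.32, 2.63, and 2.07 FPKM in KO 0, 1, and 2. The lowest WT library was thus above the highest library labelled KO, and the means, 7.20 ± 2.87 (SD, n = 3) and 2.01 ± 0.659 (SD, n = 3), stood at a ratio of 3.58. On the log2(FPKM + 0.1) scale the fold change was -1.76 (standard error 0.54, 95% interval -3.01 to -0.51, unadjusted p = 0.0118, adjusted p = 0.539 from limma with Benjamini-Hochberg adjustment). Of the 12955 tested genes, 263 had a lower log2 fold change. Fits that each left out a library gave log2 fold changes between -2.09 and -1.49. The smallest change was without WT 0 (-1.49, unadjusted p = 0.0584 from limma). Without KO 0 it was -1.50 (unadjusted p = 0.0333 from limma). The fit without WT 1 and KO 2 gave -1.75 (unadjusted p = 0.0820 from limma).

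*Sox5* (chromosome 6 from 143828425 to 144781977), which encodes a partner that has no activation domain of its own and helps SOX9 on cartilage enhancers, was at 2.16, 0.816, and 0.797 FPKM in WT 0, 1, and 2. It was at 3.28, 3.40, and 5.83 FPKM in KO 0, 1, and 2. The lowest library labelled KO was above the highest WT library, with a log2 fold change of 1.75 (95% interval 0.16 to 3.34, unadjusted p = 0.0353, adjusted p = 0.591 from limma). *Sox6* (chromosome 7 from 115470872 to 116038796), the close relative of *Sox5* with the same role, was at 0.505, 3.48, and 0.710 FPKM in WT 0, 1, and 2. It was at 4.14, 4.82, and 5.47 FPKM in KO 0, 1, and 2. Here WT 1 stood far above the other 2 WT libraries, and the groups still did not overlap. The log2 fold change was 2.02 (95% interval 0.16 to 3.88, unadjusted p = 0.0370, adjusted p = 0.591 from limma). Without KO 0 the log2 fold changes were 1.89 for *Sox5* (unadjusted p = 0.0636 from limma) and 2.12 for *Sox6* (unadjusted p = 0.0749 from limma). Without WT 1 and KO 2 they were 1.27 for *Sox5* (unadjusted p = 0.263 from limma) and 2.71 for *Sox6* (unadjusted p = 0.0487 from limma). An antisense transcript, *Sox5os1*, shares 9.25% of the exon bases of *Sox5*, and the sources used here do not say whether strand was used in counting.

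*Sox8* (chromosome 17 from 25565892 to 25570686) encodes a SOXE factor that can stand in for SOX9 in part of its functions. It was at 1.73, 1.08, and 5.42 FPKM in WT 0, 1, and 2 and at 2.68, 1.65, and 2.61 FPKM in KO 0, 1, and 2. The WT libraries spanned a wider range than those labelled KO and enclosed them. The log2 fold change was 0.05 with a 95% interval from -1.71 to 1.81, and its sign depended on the setting. Antisense exons of *2810468N07Rik* share 10.6% of its exon bases.

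**Figure D1:**
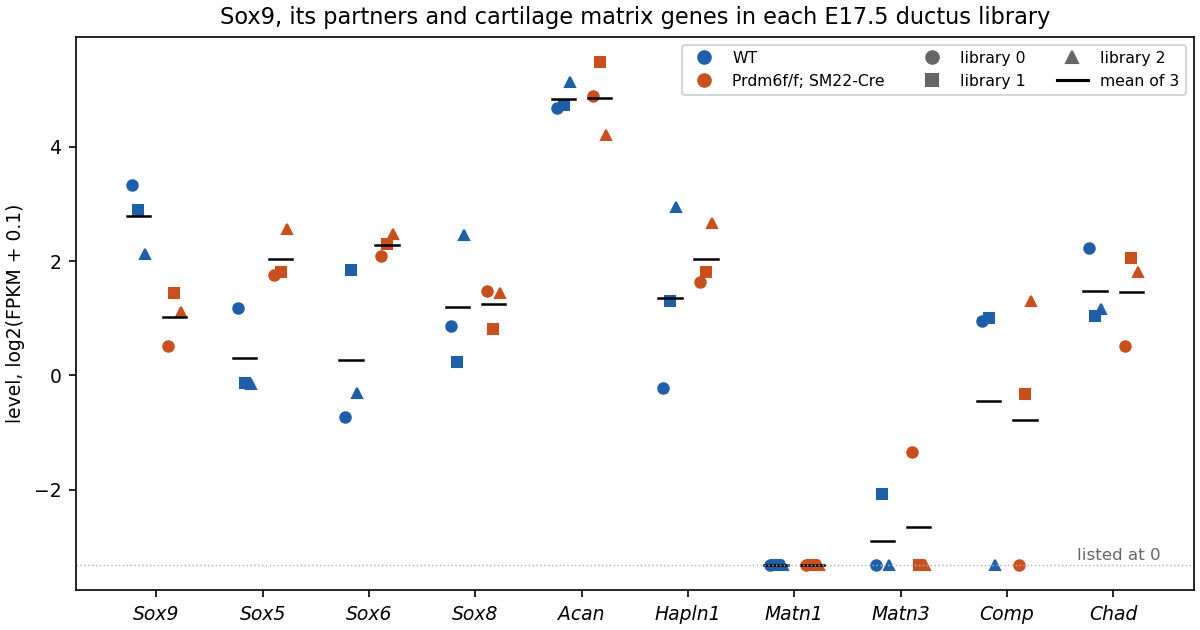
Level of each of the 10 genes in the 6 libraries, as log2(FPKM + 0.1) on the y axis. Blue points are WT and orange points KO (Prdm6f/f; SM22-Cre) libraries, the shape gives the library number, and the black line is the mean of the 3 libraries of a group. The groups are apart for *Sox9*, *Sox5*, and *Sox6* and interleave for the matrix genes, and *Matn1* lies on the dotted line of genes listed at 0 in all 6 libraries.

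The order of the Sox genes within a library turned over between the groups. *Sox9* exceeded *Sox5* and *Sox6* in each WT library, with log2 ratios to *Sox5* of 2.16 to 3.03 and to *Sox6* of 1.06 to 4.06. In each library labelled KO it was below both, with log2 ratios to *Sox5* of -1.45 to -0.36 and to *Sox6* of -1.58 to -0.85. The sum of the 4 Sox genes did not separate the groups, at 11.2 to 14.4 FPKM in WT and 11.4 to 16.0 FPKM in libraries labelled KO. The share of *Sox9* in this sum was 69.4%, 57.8%, and 38.0% in WT 0, 1, and 2 and 11.5%, 21.1%, and 12.9% in KO 0, 1, and 2. These ratios were formed after the values were seen and are given without a test.

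**Figure D2:**
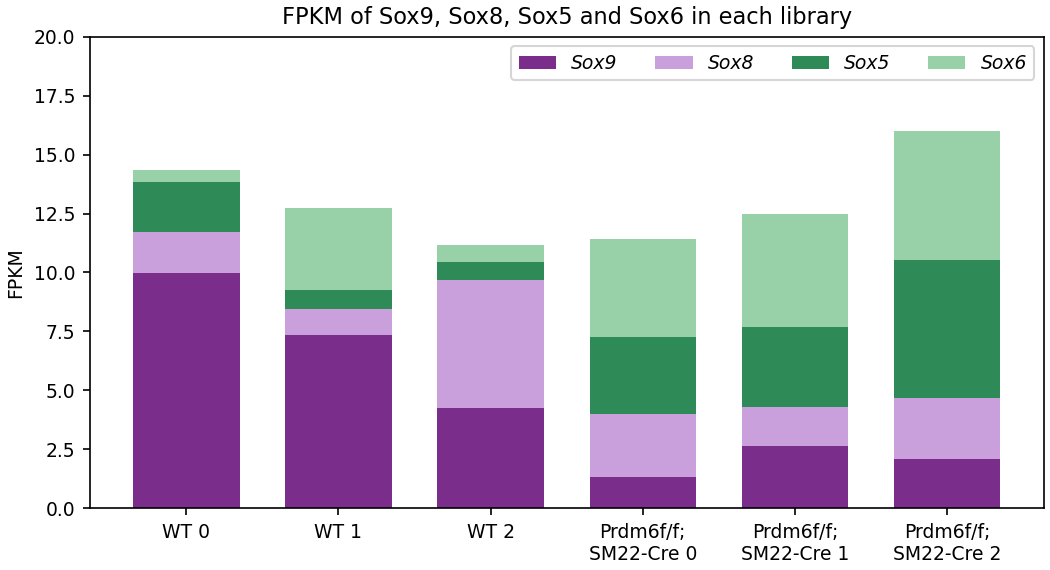
FPKM of *Sox9*, *Sox8*, *Sox5*, and *Sox6* stacked for each of the 6 libraries, with the libraries on the x axis and FPKM on the y axis. The full height of the bars is similar in both groups (11.2 to 16.0 FPKM), the dark purple *Sox9* part is larger in the 3 WT bars, and the green *Sox5* and *Sox6* parts are larger in the 3 bars labelled Prdm6f/f; SM22-Cre.

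*Acan* (chromosome 7 from 79053483 to 79115099), which encodes the large proteoglycan that holds water in cartilage, was at 25.6, 26.4, and 34.9 FPKM in WT 0, 1, and 2. It was at 29.6, 44.8, and 18.4 FPKM in KO 0, 1, and 2. The lowest and the highest of the 6 values were thus both in libraries labelled KO. The means were 29.0 ± 5.14 (SD, n = 3) and 30.9 ± 13.3 (SD, n = 3), and the log2 fold change was 0.02 with a 95% interval from -0.75 to 0.78. The interval overlaps that of *Sox9* between -0.75 and -0.51, and the difference between the genes was not tested. *Acan* made up 78.1% to 80.6% of the summed FPKM of the 6 matrix genes in WT and 60.4% to 86.4% in libraries labelled KO.

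*Hapln1* (chromosome 13 from 89539796 to 89611652), which encodes link protein, was at 0.759, 2.37, and 7.65 FPKM in WT 0, 1, and 2 and at 3.02, 3.43, and 6.28 FPKM in KO 0, 1, and 2. WT 0 and WT 2 were the lowest and the highest of the 6. The log2 fold change was 0.70 (95% interval -1.26 to 2.65), and it was -0.09 without WT 0. *Chad* (chromosome 11 from 94565047 to 94569127), which encodes a leucine-rich protein that binds chondrocytes and collagen, was at 4.57, 1.95, and 2.14 FPKM in WT 0, 1, and 2. It was at 1.32, 4.07, and 3.39 FPKM in KO 0, 1, and 2, so that the groups interleaved, with a log2 fold change of -0.02 (95% interval -1.58 to 1.55). *Comp* (chromosome 8 from 70373558 to 70382066), a matrix protein of cartilage and tendon, was at 1.83 and 1.91 FPKM in WT 0 and 1 and at 0.699 and 2.36 FPKM in KO 1 and 2, and it was listed at 0 in WT 2 and KO 0. With a 0 in each group its fitted interval, -4.73 to 4.07, is too wide to give a direction.

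The matrilin genes *Matn1* and *Matn3*, whose proteins link collagen fibrils to proteoglycans in cartilage, were nearly absent. *Matn1* (chromosome 4 from 130944385 to 130955475) was listed at 0 in all 6 libraries. *Matn3* (chromosome 12 from 8947929 to 8972028) was at 0.138 FPKM in WT 1 and 0.294 FPKM in KO 0 and was listed at 0 in the other 4. Both had a mean under 1 FPKM, the level that a gene needed to be tested, and the 8 remaining genes each had a mean of at least 1 in both groups.

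limma called 0 of the 8 tested genes at an adjusted p under 0.05 (adjusted p between 0.539 and 0.994), against 0.00772% of all tested genes, a share made up of 1 gene, the ribosomal RNA precursor *Rn45s*, which was higher. At an unadjusted p under 0.05, 1 of the 8 was lower (*Sox9*) and 2 were higher (*Sox5* and *Sox6*), where 4.97% of all tested genes were lower and 3.31% higher. This count of 3 became 1 under quantile normalization, without a filter, and when WT 0, KO 0, KO 1, or KO 2 was left out, and 2 when WT 1 or WT 2 was left out or with the replicate block. The same 3 genes were those without overlap between the groups, where 7.84% of all tested genes were lower and 8.21% higher without overlap. The median log2 fold change of the 8 was 0.03, beside 0.07 for all tested genes, and that of the 4 tested matrix genes was -0.0004. For *Sox9*, *Sox5*, and *Sox6* a two-sided exact permutation test over the 6 libraries gave p = 0.1, the smallest p that 3 libraries against 3 allow. The exact permutation test gave p = 0.5 for *Hapln1* and p = 1 for *Sox8*, *Acan*, *Chad*, and *Comp*.

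**Figure D3:**
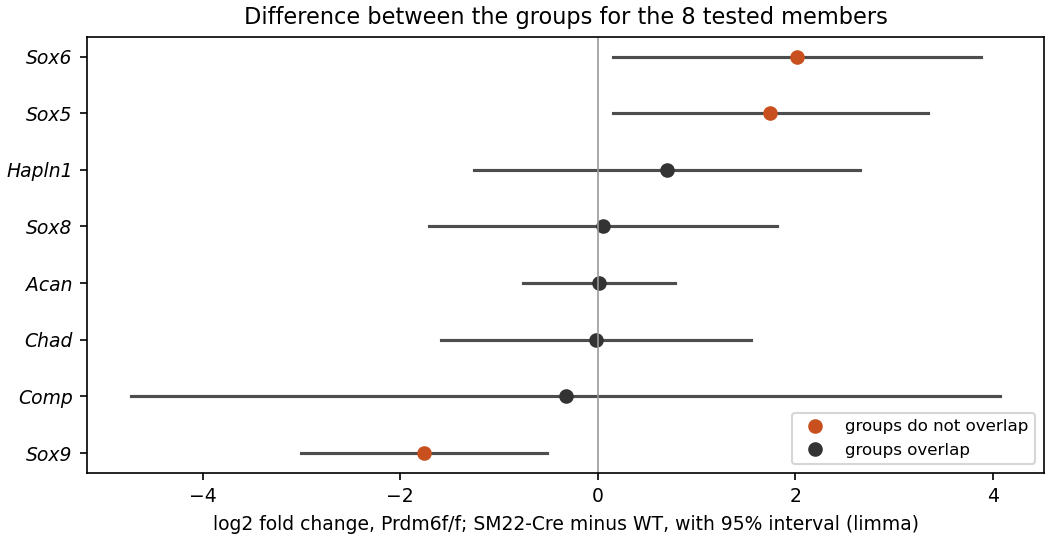
Log2 fold change on the x axis, libraries labelled KO minus WT, for the 8 tested genes, with the 95% interval from limma as a line. Orange points are genes whose groups do not overlap. The interval of *Acan* (-0.75 to 0.78) is the narrowest and that of *Comp* (-4.73 to 4.07) the widest.

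By mean level, *Acan* came first in both groups, and its range lay above that of every other gene of the 10. In WT, *Sox9* was second, followed by *Hapln1*, *Chad*, *Sox8*, *Sox6*, *Sox5*, *Comp*, *Matn3*, and *Matn1*. From *Sox9* downward, the ranges of neighbouring genes overlapped. In libraries labelled KO, *Sox6* was second at 4.81 ± 0.667 FPKM (SD, n = 3), and *Sox9* was seventh, after *Hapln1*, *Sox5*, *Chad*, and *Sox8*. From *Sox6* downward the ranges of neighbours overlapped here too.

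The wider cartilage program was read from 4 lists that together held 63 genes in the table, of which 42 were tested and 21 had a mean under 1 FPKM. limma called 0 of the 42. At an unadjusted p under 0.05, 0 were lower and 2 were higher (*Col11a1* and *Cytl1*), where 4.97% of all tested genes were lower and 3.31% higher. The groups did not overlap for 4 of them, 1 lower and 3 higher, beside 7.84% lower and 8.21% higher among all tested genes, so that the list was not above the background. The median log2 fold change of the 42 was 0.15, and 15 had a negative and 27 a positive value. Without KO 0, 1 of 43 genes was lower at an unadjusted p under 0.05 (*Mia*, log2 fold change -4.42, adjusted p = 0.728 from limma) and 1 was higher (*Col11a1*). Without WT 1 and KO 2, 0 of 42 were lower and 3 were higher (*Col11a1*, *Cytl1*, and *Chst14*). Without WT 0 the count of both directions was 6 of 41, without WT 1 it was 4 of 44, and without KO 2 it was 1 of 42, and no gene was called in these fits.

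Of the cartilage collagens, *Col2a1*, the chain of type II collagen, was at 0.0935, 0.346, and 2.13 FPKM in WT 0, 1, and 2 and at 0.935, 1.79, and 2.63 FPKM in KO 0, 1, and 2. *Acan* was above it in each of the 6 libraries, with ratios of 16.4 to 274 in WT and 6.995 to 31.6 in libraries labelled KO. *Col9a1* had means of 1.41 ± 0.946 FPKM (SD, n = 3) in WT and 0.632 ± 0.306 FPKM (SD, n = 3) in libraries labelled KO. *Col11a2* and *Col10a1*, the latter a marker of hypertrophic chondrocytes, had a mean under 1 FPKM and were not tested. Both were higher in each library labelled KO than in any WT library. *Col11a2* was at 0.410, 0.404, and 0 FPKM in WT 0, 1, and 2. In KO 0, 1, and 2 it was at 0.476, 0.703, and 1.35 FPKM. *Col10a1* was at 0.872 FPKM in WT 1 and listed at 0 in WT 0 and 2. In KO 0, 1, and 2 it was at 1.26, 1.16, and 1.29 FPKM. The 2 most abundant chains were *Col27a1* and *Col11a1*. *Col27a1* was at 17.7 ± 1.83 FPKM (SD, n = 3) in WT and 17.4 ± 2.16 FPKM (SD, n = 3) in libraries labelled KO. *Col11a1*, which is also expressed in other fetal connective tissue, was at 5.71, 10.7, and 9.20 FPKM in WT 0, 1, and 2 and at 12.9, 20.6, and 29.5 FPKM in KO 0, 1, and 2. Its groups did not overlap, and its log2 fold change was 1.26 (95% interval 0.37 to 2.15, unadjusted p = 0.0119, adjusted p = 0.540 from limma), opposite in sign to that of *Sox9*. Over the 6 tested chains the median log2 fold change was 0.74, with 2 lower and 4 higher. It was 0.25 under quantile normalization and 0.37 without KO 2.

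Among 16 other matrix and secreted genes of cartilage, 9 were tested. *Ucma*, *Otor*, and *3110079O15Rik*, the gene of the chondrocyte protein SNORC, were listed at 0 in all 6 libraries. *Matn2*, a matrilin with a wide tissue range, was the most abundant, at 37.2 ± 13.9 FPKM (SD, n = 3) in WT and 49.0 ± 19.9 FPKM (SD, n = 3) in libraries labelled KO. *Cytl1*, which encodes a small secreted protein, was at 22.2, 12.4, and 6.75 FPKM in WT 0, 1, and 2 and at 62.7, 58.0, and 20.5 FPKM in KO 0, 1, and 2. WT 0 was above KO 2, so the groups overlapped (log2 fold change 1.77, unadjusted p = 0.0127, adjusted p = 0.540 from limma). *Fmod*, which encodes fibromodulin, had means of 13.3 ± 7.08 FPKM (SD, n = 3) in WT and 15.05 ± 11.2 FPKM (SD, n = 3) in libraries labelled KO. *Mia*, which encodes a small protein secreted by chondrocytes, was at 6.86, 4.26, and 33.0 FPKM in WT 0, 1, and 2 and at 10.4 and 2.10 FPKM in KO 0 and 1, and it was listed at 0 in KO 2. KO 0 lay within the WT range, and the log2 fold change was -2.92 with a 95% interval from -6.69 to 0.85. The median log2 fold change of the 9 was 0.02, but it was -0.01 with equal library medians and -1.12 without WT 1 and KO 2, and it lay between -0.76 (without KO 2) and 0.68 (without KO 0) with a library left out.

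Of 18 regulators and signalling genes of chondrocytes, 7 were tested, with 1 lower and 6 higher and a median log2 fold change of 0.58. The median was 0.21 without KO 0, 0.23 without WT 1, and 0.35 without WT 2. *Runx2*, *Ihh*, and *Nkx3-2*, which act in hypertrophic chondrocytes or their precursors, had a mean under 1 FPKM. *Mef2c*, which encodes a factor of muscle and of hypertrophic chondrocytes, was the 1 tested gene of the list whose groups did not overlap, with a log2 fold change of 0.54 (95% interval -0.17 to 1.25). *Wwp2*, a ubiquitin ligase gene that hosts the cartilage miRNA miR-140, was at 18.9 ± 4.36 FPKM (SD, n = 3) in WT and 15.5 ± 2.06 FPKM (SD, n = 3) in libraries labelled KO.

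The enzymes and transporters that build and sulfate the chains of aggrecan and other proteoglycans had summed FPKM of 243 to 288 in WT and 253 to 292 in libraries labelled KO. Of 21 genes, 20 were tested, with 8 lower, 12 higher, and a median log2 fold change of 0.10. The median was 0.02 under quantile normalization and lay between 0.02 (without WT 2) and 0.18 (without WT 1) with a library left out. *Chsy1*, a chondroitin polymerase gene and the most abundant, was at 44.0 ± 3.96 FPKM (SD, n = 3) in WT and 48.3 ± 6.90 FPKM (SD, n = 3) in libraries labelled KO. The groups did not overlap for *Chst12* (log2 fold change -0.53, 95% interval -1.16 to 0.09) and *Chst15* (1.19, 95% interval -0.05 to 2.43), which both encode sulfotransferases.

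**Figure D4:**
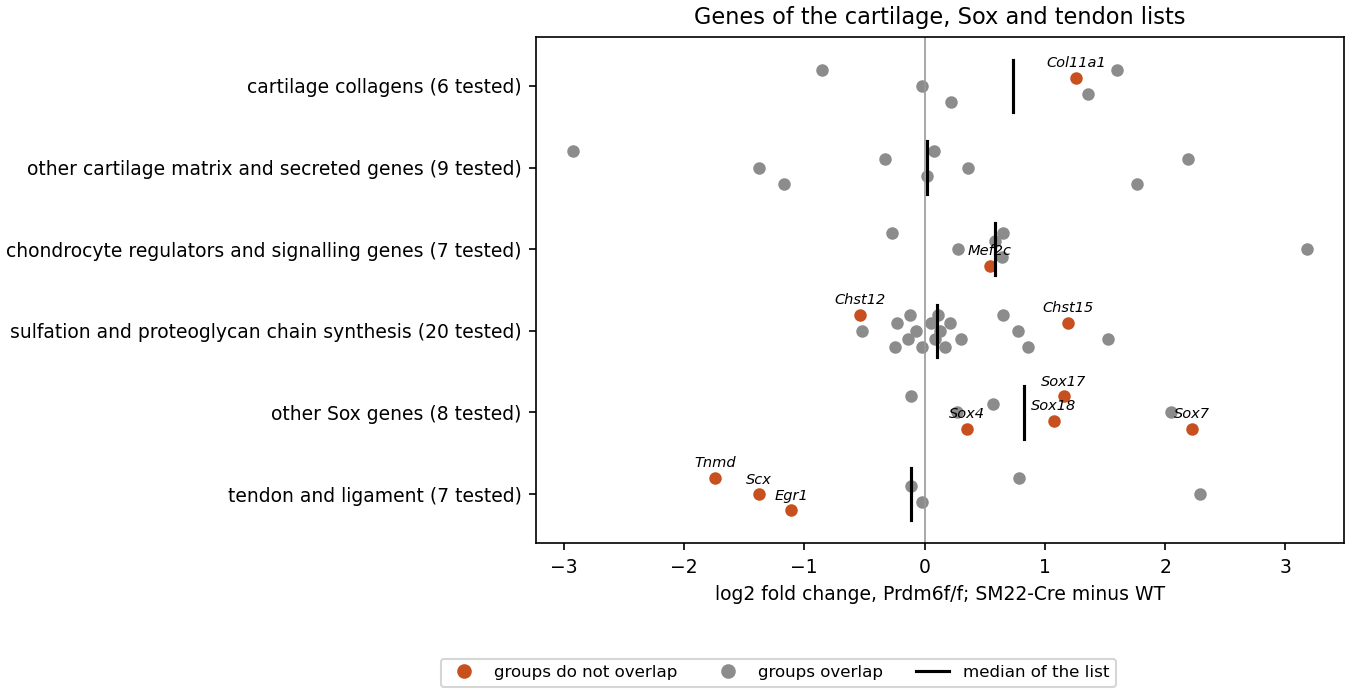
Log2 fold change on the x axis, libraries labelled KO minus WT, for each tested gene of 6 lists, with 1 point per gene and a black line at the median of each list. Orange points, named in the plot, are genes whose groups do not overlap. In the cartilage lists these are *Col11a1*, *Mef2c*, *Chst12*, and *Chst15*, and in the tendon list they are *Tnmd*, *Scx*, and *Egr1*, all 3 lower.

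*Sox9* was also set beside the other Sox genes. Of 16, 8 were tested, with 1 lower and 7 higher, and 4 had groups without overlap, all higher in libraries labelled KO (*Sox4*, *Sox7*, *Sox17*, and *Sox18*), beside 8.21% of all tested genes. This count of 4 was 6 without KO 0. The count over all tested genes rose as well, from 2080 of 12955 to 3462 of 12944 in both directions. *Sox7*, *Sox17*, and *Sox18* are the SOXF genes of endothelium. *Sox7* was at 5.43, 3.89, and 0.354 FPKM in WT 0, 1, and 2 and at 6.65, 13.8, and 10.8 FPKM in KO 0, 1, and 2 (log2 fold change 2.22, unadjusted p = 0.0448, adjusted p = 0.598 from limma). *Sox10*, the SOXE gene of neural crest and glia, was at 2.41, 1.41, and 1.82 FPKM in WT 0, 1, and 2 and at 1.94, 14.3, and 17.6 FPKM in KO 0, 1, and 2. KO 0 lay within the WT range, whereas KO 1 and KO 2 were far above it. Among the 12 tested Sox genes, *Sox9* was the only one that was lower without overlap between the groups in these libraries. *Sox30* had a mean under 1 FPKM over the 6 libraries and was not tested, but it too was lower without overlap. It was at 1.52, 0.858, and 0.954 FPKM in WT 0, 1, and 2. In KO 0, 1, and 2 it was at 0.510, 0.186, and 0.135 FPKM.

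Genes of other cell types in which *Sox9* can be active were counted in each library. The tendon and ligament list held 8 genes, of which 7 were tested, with 5 lower and 2 higher and a median log2 fold change of -0.11, which became 0.03, with 3 lower and 4 higher, under quantile normalization. The groups did not overlap for 3 of the 7, all lower, beside 7.84% of all tested genes. Its summed FPKM was 163 to 192 in WT and 124 to 157 in libraries labelled KO, which did not overlap. *Scx*, which encodes the transcription factor scleraxis of tendon progenitors and of heart valves, was at 36.9, 14.2, and 39.5 FPKM in WT 0, 1, and 2 and at 12.5, 10.3, and 8.98 FPKM in KO 0, 1, and 2 (log2 fold change -1.38, 95% interval -2.33 to -0.43, unadjusted p = 0.0103, adjusted p = 0.535 from limma). *Tnmd*, which encodes tenomodulin, a late tendon protein, was at 22.4, 6.47, and 28.2 FPKM in WT 0, 1, and 2 and at 5.73, 5.26, and 3.49 FPKM in KO 0, 1, and 2 (log2 fold change -1.74, unadjusted p = 0.0158, adjusted p = 0.545 by limma). In *Scx* and *Tnmd* alike, the groups did not overlap, and WT 1 was the WT library closest to those labelled KO, whereas for *Sox9* that library was WT 2. *Egr1*, an immediate early gene as well as a tendon regulator, was also lower without overlap (log2 fold change -1.11), and the abundant *Tnc* was at 84.5 ± 8.25 FPKM (SD, n = 3) and 80.1 ± 23.5 FPKM (SD, n = 3). The 2 higher genes were *Thbs4* (log2 fold change 2.29, 95% interval -1.45 to 6.03) and *Mkx* (0.78, 95% interval -2.37 to 3.94), both with overlap. The part of tendon and ligament genes in the *Sox9* difference was not tested.

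Schwann cell and glial genes had mostly positive log2 fold changes. Of 12, 10 were tested, with 1 lower and 9 higher, 4 of them without overlap, beside 8.21% of all tested genes, and the median log2 fold change was 2.11. The count without overlap was 8 without KO 0. Without that library, 3462 of 12944 tested genes did not overlap in either direction, against 2080 of 12955 with all 6 libraries. Their summed FPKM was 20.3 to 49.6 in WT and 53.9 to 201 in libraries labelled KO. *Sox5* and *Sox6* were highest in KO 2, as was this sum. Within WT the orders differed. The sum was lowest in WT 0 (20.3) and highest in WT 2 (49.6), whereas *Sox5* was highest in WT 0 (2.16 FPKM) and *Sox6* in WT 1 (3.48 FPKM). The part of glia in the *Sox5* and *Sox6* differences was not tested. Of 10 smooth muscle genes 10 were lower, 5 of them without overlap, beside 7.84% of all tested genes, with a median log2 fold change of -1.34. The count without overlap ranged from 4 under quantile normalization to 7 without WT 2 or KO 0. Without WT 2 the count over all tested genes was also higher, at 3365 of 12998 in both directions. Both the glial and the smooth muscle counts of lower and higher genes were the same under quantile normalization, with equal library medians, without KO 0, and without WT 1 and KO 2. The part of smooth muscle in the *Sox9* difference was likewise not tested.

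Transcripts of airway epithelium, which may or may not accompany airway wall in a dissection, were low and uneven. Of 21 genes 8 were tested, 13 had a mean under 1 FPKM, and 2 were listed at 0 in all 6 libraries. *Epcam* was at most 0.362 FPKM and *Cdh1* at most 0.987 FPKM in any library. *Nkx2-1*, the factor of lung and trachea epithelium, was at 1.76, 1.64, and 2.16 FPKM in WT 0, 1, and 2 and at 2.96, 2.92, and 0.763 FPKM in KO 0, 1, and 2. *Scgb1a1*, the secretoglobin gene of club cells, was at 17.3 FPKM in KO 0 and was listed at 0 in the other 5 libraries. *Sftpc*, the surfactant protein gene of distal lung, was at 0.978 FPKM in WT 1, 6.71 FPKM in KO 0, and 3.69 FPKM in KO 1 and was listed at 0 in the other 3. *Scgb3a2*, another secretoglobin gene of airway, was at 1.46 FPKM in WT 1 and 3.10 FPKM in KO 2 and was listed at 0 in the other 4. At least 1 of *Scgb1a1*, *Sftpc*, and *Scgb3a2* was thus above 0 in each library labelled KO and in WT 1. *Nkx2-1* was above 0 in all 6 libraries. The secretoglobin genes and *Sftpc* were picked with their values in view, and *Trp63* and *Foxj1*, of the same list, had higher means in WT. *Trp63* was at 0.757 FPKM in WT 1, 2.29 FPKM in WT 2, and 0.103 FPKM in KO 2. *Foxj1* was at 0.921 FPKM in WT 0, 0.844 FPKM in WT 1, and 0.285 FPKM in KO 2. Each was listed at 0 in its other 3 libraries. Most of the list's summed FPKM (44.8 to 117 in WT and 76.3 to 90.1 in libraries labelled KO) came from *Krt19* and *Krt18*, keratin genes that are also active in mesothelium and fetal mesenchyme. The part of airway tissue, cartilage included, in the *Sox9* difference was not tested.

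**Figure D5:**
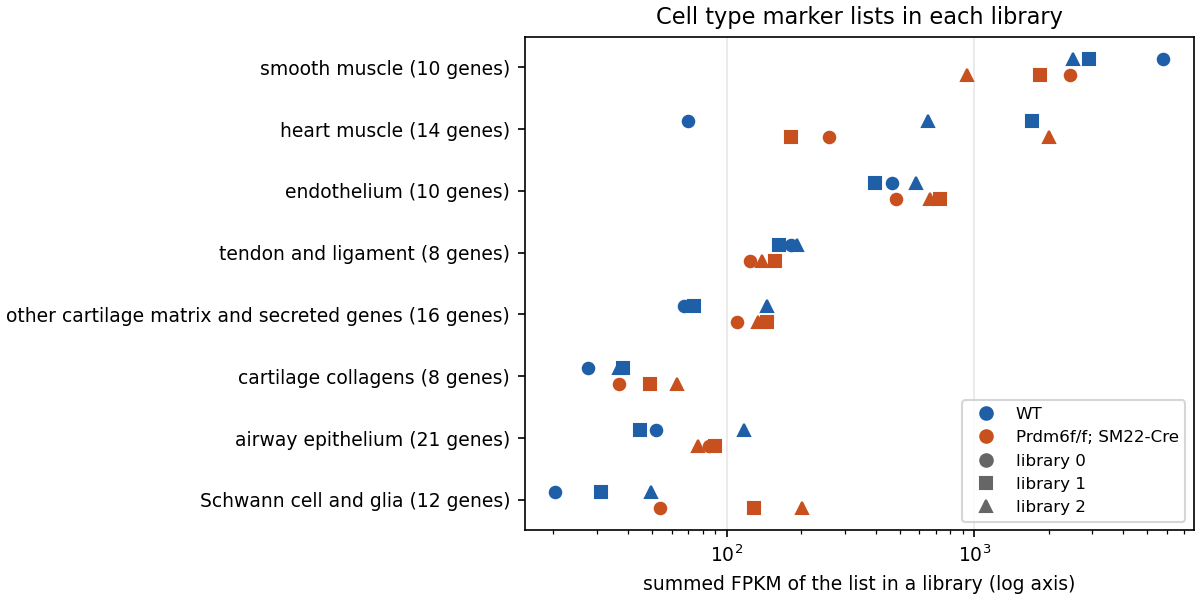
Summed FPKM of 8 cell type marker lists in each library, on a log x axis, with WT libraries in blue, libraries labelled KO (Prdm6f/f; SM22-Cre) in orange, and the shape giving the library number. Smooth muscle sums are lower and glial sums higher in the orange points. The cartilage collagen sums (27.7 to 38.3 in WT and 36.8 to 63.3 in libraries labelled KO) overlap between the groups.

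The genes closest to *Sox9* in their course over the 6 libraries were found from the root mean squared difference of the log2(FPKM + 0.1) values, each gene centred on its own mean. The measure was taken to all 12954 other tested genes, and its median was 1.13. The nearest 5 were *Shroom3* (0.17), *Dpm2* (0.33), *Adap1* (0.37), *Tgfbi* (0.37), and *Zscan18* (0.38). *Shroom3*, which encodes an actin-binding protein of cell shape, was at 19.4, 13.5, and 8.62 FPKM in WT 0, 1, and 2 and at 3.08, 5.36, and 5.59 FPKM in KO 0, 1, and 2. *Tgfbi*, which encodes a secreted matrix protein induced by TGF-β, was at 82.4, 61.6, and 47.1 FPKM in WT 0, 1, and 2 and at 8.32, 13.3, and 18.4 FPKM in KO 0, 1, and 2. In both, as in *Sox9*, WT 0 was the highest and KO 0 the lowest library. The other genes of the 10 ranked far lower. *Chad* came closest at rank 2666 (0.94), *Acan* was at rank 5724 (1.09), and *Sox5* and *Sox6* were at ranks 10736 (1.81) and 11246 (2.09). Smooth muscle *Myh11* was at rank 130 (0.60) and *Tagln* at rank 520 (0.76). Of the tendon genes, *Scx* was at rank 687 (0.78) and *Tnmd* at rank 2392 (0.93). The ranks of the other smooth muscle and tendon genes are not given. All points of these courses come from the same 6 libraries and include the difference between the groups.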

How the data were processed

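RNA from dissected E17.5 DA was sequenced as 3 libraries labelled WT and 3 labelled KO. After trimming, the authors aligned reads to mm10 (TopHat2) and obtained the FPKM values deposited for each gene (Cufflinks, Cuffdiff). Versions, gene annotation, and scaling between libraries are not given in the sources used here. Columns were matched to libraries by title.

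Of 23997 genes, 12955 had a mean of 1 FPKM or more over the 6 libraries and were compared on log2(FPKM + 0.1), a scale that understates the change of low genes. The test was limma 3.58.1 in R 4.3.3 (lmFit, then eBayes with a trend, two-sided) with Benjamini-Hochberg adjustment over all tested genes and a threshold of 0.05, because Cuffdiff needs the aligned reads. It was tested on simulated data. Exact permutation tests used scipy 1.17.1. Alternatives covered the pseudocount, filter, scaling, trend, a replicate block, and the omission of each library, and the omission of WT 1 and KO 2 was chosen after the data were seen. Positions are from GENCODE vM21 (GRCm38, the assembly of mm10).

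The 10 genes and the lists were chosen with earlier results of these data known. A gene of these lists is not reported here and was left out of their counts. By rule, the text names the 10 genes, the defining genes of each list, genes among its 3 most abundant, up to 3 of its genes without overlap, called genes, and the 5 genes nearest to *Sox9*. *Col10a1*, *Runx2*, *Ihh*, *Nkx3-2*, *Mia*, *Scgb1a1*, *Sftpc*, *Scgb3a2*, *Trp63*, *Foxj1*, *Sox30*, *Chst14*, *Thbs4*, *Mkx*, and the genes at 0 were picked outside this rule with their values in view. The labels do not tie the libraries of a group to separate embryos, so p values measure the spread between these libraries, which may be technical.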

Additional observations from a re-analysis of the deposited data

How the results depend on the processing

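*Sox9* kept a negative and *Sox5* and *Sox6* a positive log2 fold change in each of the 15 alternatives in which they were tested (a filter at 5 FPKM leaves them out), with adjusted p from limma between 0.416 and 0.881. The log2 fold change of *Sox9* ranged from -2.40 with quantile normalization to -1.41 with a pseudocount of 1. No alternative called any of the 10 genes or of the cartilage lists. Whether the replicate numbers 0, 1, and 2 pair the libraries cannot be decided with 3 libraries a group. Correlations of deviations between same-numbered libraries were 0.12, -0.08, and -0.01. Those between differently numbered libraries ran from -0.12 to 0.14. With the replicate block *Sox9* stayed at -1.76 (adjusted p = 0.551 from limma) and 1 gene was called.

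The genes with small differences changed sign. *Sox8* turned from 0.05 to -0.015 with a pseudocount of 1, -0.16 with quantile normalization, -0.52 without WT 1 and KO 2, and between -0.43 and 0.69 with a library left out. *Acan* turned from 0.02 to -0.012 with equal medians and lay between -0.30 and 0.34 with a library left out. *Chad* turned from -0.02 to 0.0016 with a pseudocount of 1 and lay between -0.32 and 0.46 with a library left out, *Hapln1* lay between -0.085 and 1.501, and *Comp* between -1.76 and 0.94. The median of the tested genes of the 10, 0.03, lay between -0.066 and 0.68 with a library left out, and was 0.42 without WT 2, 0.68 without KO 0, and 0.34 without KO 2.

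The number of the 10 without overlap, 3, became 0 with the filter at 5 FPKM, which tests only *Acan*. The 1 gene called, the ribosomal RNA precursor *Rn45s* (at 0 in every WT library and at 3060 FPKM or more in every library labelled KO), became 2 genes without the mean-variance trend and 3 without WT 1 and KO 2, and lay between 1 and 3 with a library left out (3 without WT 1, without KO 0, or without KO 2). The cause of these changes was not tested. With 3 libraries a group and a wide spread within the groups, the intervals leave changes of more than 2 on the log2 scale undecided for *Hapln1* and *Comp*.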
